A study of Mus musculus with 8 samples.

Results

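Mitochondrial ribosomal protein genes encode the proteins of the ribosome that works inside mitochondria. The members were taken by symbol: RefSeq protein-coding genes of the mouse assembly GRCm38.p6 on chromosomes 1 to 19, named Mrpl or Mrps followed by digits and at most 1 lower-case letter. The rule used no measured value and found 78 genes among 20661. Of these, 51 encode proteins of the large subunit (Mrps18a and Mrps30 among them, whatever their symbols say) and 26 encode proteins of the small subunit. The remaining gene, Mrps36, was named as a small-subunit gene, but its product is now known as a component of the oxoglutarate dehydrogenase complex.

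The study mapped dimethylation of histone H3 at lysine 79 (H3K79me2) by sequencing of immunoprecipitated chromatin (ChIP-seq) from mouse spermatogonial stem cells in culture, the self-renewing cells from which sperm production draws. Cultures were derived from testes of 7-day-old ROSA mice of the strain B6.129S7-Gt(ROSA)26Sor/J, which carry a LacZ reporter in every tissue, and were kept on a feeder layer of SNL 76/7 mouse fibroblasts, with GDNF (10 ng/mL) and FGF2 (0.5 ng/mL). Both conditions share this source, feeder layer and medium. For 7 days the control cultures received vehicle and the treated cultures received 2 µM EPZ5676, an inhibitor of the methyltransferase DOT1L. The protocols call the vehicle DMSO and the short sample descriptions call it ethanol, so which was used is uncertain here. The 8 samples form 4 groups of 2: H3K79me2 and input chromatin, each from control and from EPZ5676-treated cultures.

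The values come from 2 deposited peak lists, 1 for each condition, with 47774 control peaks and 9182 EPZ5676 peaks. With 1 list per condition, these lists carry no spread between the 2 H3K79me2 replicates, so no test was made and every difference between the lists is a description of these 2 lists. The lists do not hold read depth, so the depth is unknown. A gene without a peak had no signal that passed the authors' calling threshold, which is not the same as lacking the mark.

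The mitochondrial ribosome translates the few messenger RNAs made from mitochondrial DNA, all of which encode subunits of the respiratory chain and ATP synthase. Its own proteins are encoded in the nucleus, made in the cytosol and imported. Some have counterparts in bacterial ribosomes and others are found only in mitochondria. H3K79me2 is laid down by DOT1L, the enzyme inhibited by EPZ5676. It is known as a mark of transcribed genes and usually lies over the first part of the transcribed region.

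Sequences around 5 gene starts and between 1 divergent pair of starts are shown first, since the results return to these genes. They come from RefSeq (GRCm38.p6) and are written 5′ to 3′ on the strand of the named gene, with the start base counted as 0. Each of the first 5 runs from base -150 to base 29. Capitals mark the letters of 3 motifs that were searched for: CCGGAA, the core recognised by ETS factors; GCGCANGCG, for NRF1, a regulator of nuclear genes of mitochondrial function; and CCATNTT, for YY1. N stands for any base, and both strands were read. Mrps5, Mrps9 and Mrps31 are shown because they alone among the 78 carried an EPZ5676 peak. Mrpl50 had the control peak of highest fold enrichment lying within its own gene, and Mrpl58 has both ETS letters and YY1 letters at its start.
Mrps5, chr2:127587276-127587455, plus strand: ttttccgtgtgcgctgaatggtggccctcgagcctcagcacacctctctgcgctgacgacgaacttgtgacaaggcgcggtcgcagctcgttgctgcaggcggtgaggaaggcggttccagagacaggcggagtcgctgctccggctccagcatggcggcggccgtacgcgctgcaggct
Mrps9, chr1:42851083-42851262, plus strand: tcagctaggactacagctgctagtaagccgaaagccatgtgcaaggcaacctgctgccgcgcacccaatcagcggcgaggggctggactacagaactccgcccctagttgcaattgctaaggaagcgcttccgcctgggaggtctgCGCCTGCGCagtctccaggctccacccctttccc
Mrps31, chr8:22411190-22411369, plus strand: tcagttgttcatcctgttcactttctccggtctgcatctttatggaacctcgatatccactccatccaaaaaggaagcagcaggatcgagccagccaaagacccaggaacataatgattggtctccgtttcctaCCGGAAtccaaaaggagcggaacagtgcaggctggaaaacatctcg
Mrpl50, chr4:49521054-49521233, minus strand: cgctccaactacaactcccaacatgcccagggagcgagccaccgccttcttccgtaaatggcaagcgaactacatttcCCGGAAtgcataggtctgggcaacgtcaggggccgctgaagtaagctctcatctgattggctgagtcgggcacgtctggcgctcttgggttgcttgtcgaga
Mrpl58, chr11:115403602-115403781, plus strand: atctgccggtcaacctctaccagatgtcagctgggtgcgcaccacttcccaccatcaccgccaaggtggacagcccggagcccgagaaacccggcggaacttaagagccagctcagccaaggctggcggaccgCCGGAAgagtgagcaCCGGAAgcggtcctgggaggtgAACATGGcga
The last stretch holds the 41 bases that separate the starts of Mrpl46 and Mrps11, which are transcribed away from each other and lie under 1 control peak.
Between Mrpl46 and Mrps11, chr7:78783090-78783130, plus strand: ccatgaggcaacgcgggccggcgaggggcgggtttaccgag

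In control cultures nearly every mitochondrial ribosomal protein gene was marked. A peak covered at least 1 bp of the annotated span in 77 of the 78 genes (98.7%), and across all protein-coding genes the share was 54.2%. After EPZ5676, 3 of the 78 genes (3.85%) had a peak, beside 13.0% of all protein-coding genes. All 3 also had a control peak, so 3 of 77 control-marked members had an EPZ5676 peak, beside 19.9% of all control-marked genes. These shares take no account of gene size, and the members had a median span of 7690.5 bp. EPZ5676 peaks lay on 2.06% of all genes of 5 to 10 kb and on 25.1% of those above 20 kb. Whether the members differ from other genes of their size in the EPZ5676 list was not tested. Summed over the 78 genes, control peaks covered 410496 bp and EPZ5676 peaks 1528 bp, or 0.372% of the control length. This ratio of sums depends on how much was called in each list. Control peaks covered 40.7% of the 1009519 bp that the 78 spans make up, against 16.0% of the summed span of all genes. The corresponding values after EPZ5676 were 0.151% and 0.369%.

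Among the 77 control-marked genes, the covered length had a median of 2860 bp (quartiles 1966 and 5132 bp) and ran from 125 bp in Mrpl34 to 52047 bp in Mrps6. Coverage lay between 1 and 7 kb in 61 genes, at or above 7 kb in 10 and under 1 kb in 6. The covered share of the span had a median of 42.2%, with quartiles at 26.4% and 74.3%. A single control peak lay over 61 of the 77 genes, beside 4741 of all 11200 control-marked genes and 74 of 77 cytosolic ribosomal protein genes. Mrpl18, Mrpl33, Mrpl52, Mrpl57 and Mrps26 were covered along their whole span, and 11 members had at least 90% covered. Of all control-marked genes, 102 were fully covered and 387 had at least 90% covered. In the cytosolic set 3 were fully covered and 11 had at least 90% covered. Over all 11200 control-marked genes the median covered length was longer (5984 bp) and the median share smaller (33.3%). The authors' fold enrichment of the strongest control peak on each gene had a median of 3.27 over the members (2.26 to 6.73) and 3.36 over all marked genes.

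**Figure D1:**
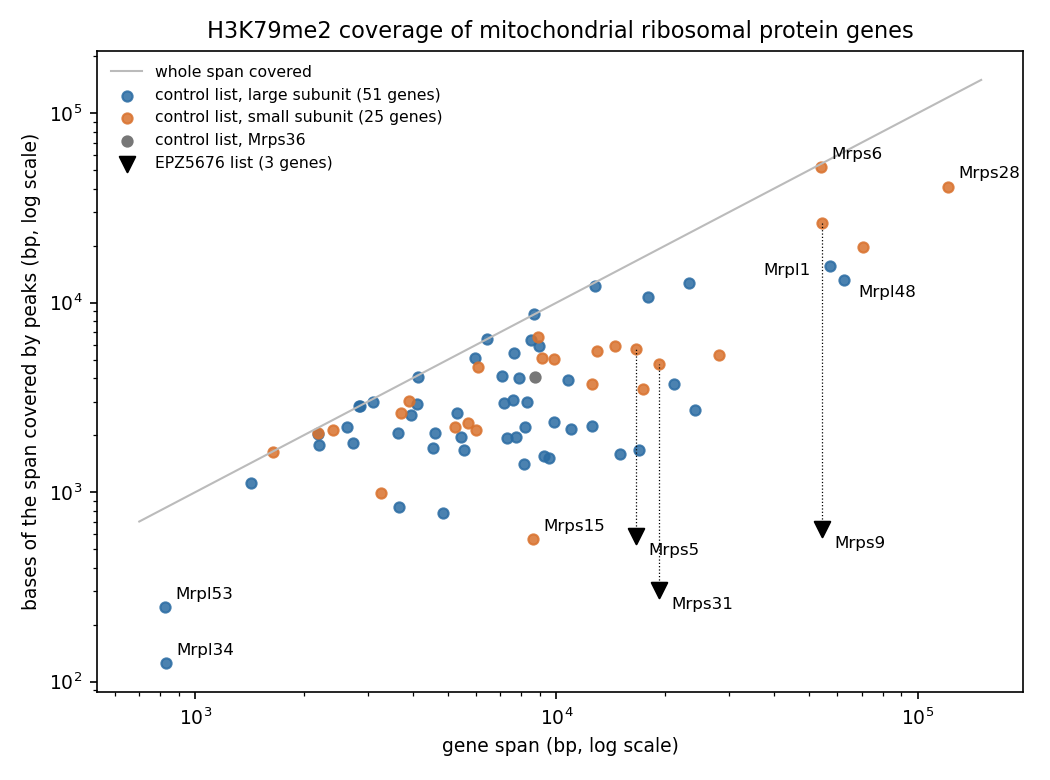
Bases covered by peaks (vertical, log scale) against the annotated span (horizontal, log scale) for the 77 marked genes. Circles are control values, coloured by subunit, black triangles are the 3 EPZ5676 values, dotted lines join the 2 values of a gene, and the grey line marks a fully covered span; 61 of the 77 circles lie between 1 and 7 kb, and the 3 triangles lie at or below 636 bp.

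The members are short genes, with a median span of 7690.5 bp against 17491 bp over all protein-coding genes, so coverage was also compared within classes of span. Of the 25 members under 5 kb, 24 (96.0%) had a control peak, whereas 24.8% of all genes of that size did. All 30 members of 5 to 10 kb, all 13 of 10 to 20 kb and all 10 above 20 kb were marked in the control list. The shares over all genes in these classes were 50.1%, 59.3% and 67.4%. The median covered length of marked members, beside that of all marked genes of the class, was 2044.5 against 1777 bp in the shortest class, 2973 against 3080.5 bp and 3919 against 4817.5 bp in the middle classes, and 14389 against 12782 bp in the longest. In the EPZ5676 list, none of the 55 members under 10 kb had a peak, where the shares over all genes were 0.875% under 5 kb and 2.06% from 5 to 10 kb. Above 10 kb, 2 of 13 and 1 of 10 members had one, beside 5.23% and 25.1% of all genes in those classes.

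**Figure D2:**
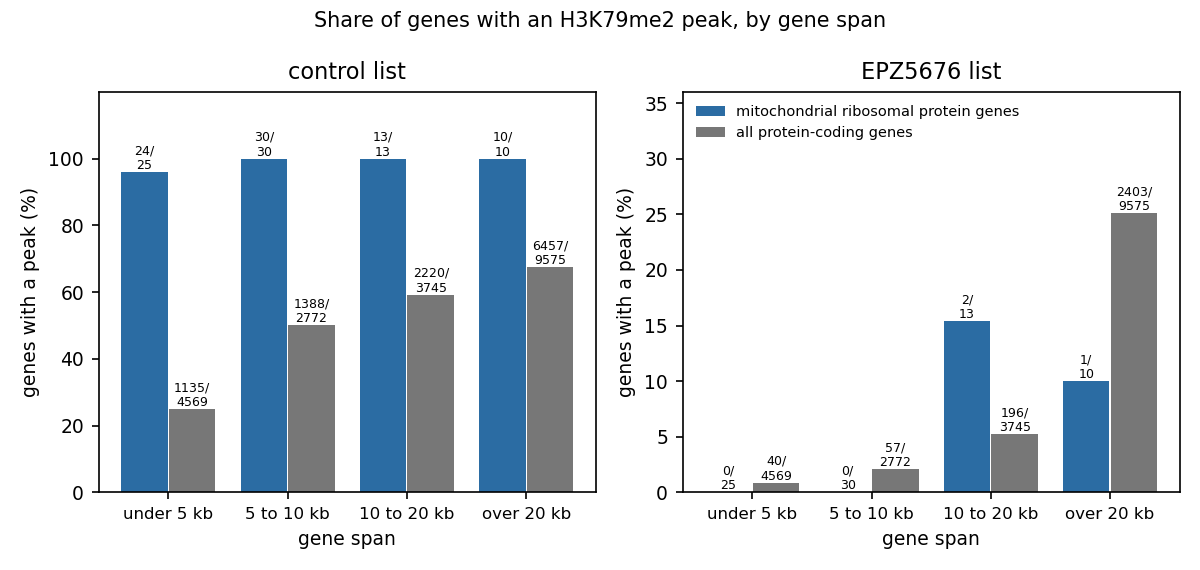
Percent of genes with a peak in the control list (left) and the EPZ5676 list (right), by class of gene span. Blue bars are mitochondrial ribosomal protein genes, grey bars all protein-coding genes, and the fractions give genes with a peak over genes in the class; in the control list the blue bars are at 96.0% or above in every class while the grey bars climb from 24.8% to 67.4%.

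Across the 77 marked members, longer genes had more marked bases and a smaller marked share. Spearman's rho between span and covered length was 0.615, and between span and covered share it was -0.450. Over all 11200 control-marked genes these values were 0.620 and -0.330. Span and covered length share the gene's length by construction, so these coefficients describe the genes and carry no test. For span and the authors' fold of the strongest peak, rho was 0.194 over the members. The median top fold of marked members was 2.97 under 5 kb, 3.29 from 5 to 10 kb, 3.54 from 10 to 20 kb and 3.60 above 20 kb, beside 2.98, 3.14, 3.35 and 3.52 over all marked genes, so both series were higher in longer classes.

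Of the proteins of the large subunit, all 51 genes had a control peak and none had an EPZ5676 peak, beside 54.2% and 13.0% of all protein-coding genes. Their median span was 7306 bp, and EPZ5676 peaks were rare on genes of that size in general (2.06% of all genes of 5 to 10 kb). Whether the subunits differ in the EPZ5676 list was not tested. The longest coverage belonged to Mrpl1, which encodes the counterpart of bacterial protein L1, with 15572 bp or 27.2% of its span on chromosome 5 (96209498 to 96266727). Mrpl48, a gene of the central protuberance, followed with 13206 bp in 6 peaks (21.1% of 62523 bp). Mrpl13, whose product is the counterpart of L13, had 12649 bp (54.5%). The shortest coverage was on Mrpl34 (125 bp of 828 bp), Mrpl53 (248 bp of 825 bp) and Mrpl11 (772 bp of 4844 bp). On the first pair of these the gene is shorter than the distance at which control peaks usually end, and the peak ran on beyond it: that over Mrpl34 lay 703 to 1595 bp from the gene start, and that over Mrpl53 lay 577 to 8689 bp from it and also covered the neighbouring gene Mogs.

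Large-subunit genes with a bacterial counterpart (30 genes) had a median control coverage of 2586.5 bp and 37.0% of the span. The 21 that are specific to mitochondria had 2207 bp and 57.9%. The stalk recruits the translation factors that hydrolyse GTP: Mrpl12, its repeated protein, had 2933 bp covered (71.2%) and a top fold of 4.85; Mrpl10, which anchors it, had 5441 bp (71.3%) and 4.57. Mrpl11, at the base of the stalk, had 15.9% covered and a top fold of 2.32. The 6 genes of the exit tunnel, through which the new protein leaves, had a median of 1764.5 bp and 21.6%, the lowest share among the role lists of the large subunit. Mrpl45, whose product holds the tunnel exit against the inner membrane, had 1597 bp, or 10.6% of a 14998-bp gene. The 6 genes of the central protuberance had a median of 4995.5 bp and 51.1%. Mrpl44, which has a fold like that of RNase III enzymes, had 1966 bp (36.2%), and Mrpl58, a peptidyl-tRNA hydrolase that frees stalled ribosomes, had 5908 bp (66.0%). All these genes had 0 bp in the EPZ5676 list.

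The gene with the strongest large-subunit peak by the authors' fold was Mrpl48 (fold 6.73), but that peak, 20430 bp wide, ended 239 bp inside the gene and otherwise lay upstream of its start, over Rab6a. Mrpl50 came next, with a fold of 6.28 and a −log10 q of 25.6. Its peak covered 6381 bp (75.2% of the gene at chromosome 4, 49512597 to 49521083) and ran from 178 to 6558 bp past the start printed above.

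In the small subunit, 25 of 26 genes had a control peak and 3 of 26 (11.5%) had an EPZ5676 peak, beside 54.2% and 13.0% of all protein-coding genes. The median span of the 26 was 9007 bp. EPZ5676 peaks lay on 2.06% of all genes of 5 to 10 kb, 5.23% of 10 to 20 kb and 25.1% above 20 kb. The 3 genes with such a peak span 16561 bp (Mrps5), 19221 bp (Mrps31) and 54451 bp (Mrps9). Whether the small subunit differs from other genes of its size was not tested. Mrps6, whose product is the counterpart of bacterial S6, had the longest control coverage of any member, 52047 bp or 96.6% of its span on chromosome 16 (92058336 to 92112227). It lay under 2 peaks, one of them 34370 bp wide, and its span also holds the transporter gene Slc5a3. Mrps28 had 41049 bp in 26 peaks (33.7% of 121712 bp), and Mrps9, the counterpart of S9, had 26475 bp in 5 peaks (48.6%). Mrps27, an RNA-binding protein of the pentatricopeptide repeat family, had 19786 bp in 10 peaks. At the low end, Mrps15 had 566 bp (6.57% of 8609 bp), Mrps17 had 985 bp (30.2%) and the fully covered Mrps26 had 1638 bp. Mrps24, the counterpart of S3, had the highest fold of the subunit (5.81) over 2625 bp (70.6%). Mrps12, at the decoding site and known for its part in accuracy, had 2042 bp covered (93.6%).

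The 16 small-subunit genes with a bacterial counterpart had a median of 2821 bp and 45.4%, and the 10 specific to mitochondria had 4954 bp and 34.3%. The latter include Mrps34, the one member with no control peak. It spans 1170 bp on chromosome 17 (24895120 to 24896289), and the nearest control peak, 2376 bp wide with a fold of 2.40 and a −log10 q of 2.61, ended 276 bp away over the neighbouring gene Eme2. Mrps34 had no EPZ5676 peak either. Mrps36, the gene of the oxoglutarate dehydrogenase complex, had 4033 bp covered (46.3%) and a fold of 4.54, within the range of the ribosomal members. The 3 paralogs of bacterial S18, which sit at different places in the ribosome, were marked to different lengths: Mrps18a over 10735 bp (60.0%), Mrps18b over 4571 bp (75.4%) and Mrps18c over 2319 bp (40.6%). None of the 3 had an EPZ5676 peak.

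In most members the control mark began shortly downstream of the gene start. RefSeq promoter entries give a start for 69 members. Mrpl4, Mrpl13, Mrpl15, Mrpl19, Mrpl38, Mrpl54, Mrps28, Mrps34 and Mrps35 have no such entry and were left out of what follows. A control peak lay within the first 1000 bp downstream of the start in 67 of 69 genes (97.1%). The share over all genes with a listed start, marked or not, was 43.9%, whereas all 69 members are control-marked. In the 9048 control-marked genes with a listed start, the nearest peak began within 1 kb downstream in 6057 and covered the start base in 1081. Among the 69 members, Mrpl11 and Mrps15 were the exceptions, with peaks that began 1157 and 1415 bp downstream. The peak nearest the start began a median of 178 bp downstream of it (quartiles -115 and 407 bp) and ended a median of 2990 bp downstream (2176 and 5201 bp). Over the 9048 control-marked genes with a listed start, the medians were 370 and 5049 bp. Over 57 cytosolic ribosomal protein genes, they were 123 and 2184 bp.

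Of these 69 peaks, 49 (71.0%) began within 1 kb downstream of the start, close to the 66.9% of all marked genes. Another 18 (26.1%) covered the start base itself, against 11.9% of all marked genes and 26.3% of the cytosolic ribosomal protein genes. The share of the 69 genes under a peak was 40.6% at 1 kb upstream, 26.1% at the start and 95.7% at 1 kb downstream, its highest value. It was 82.6% at 2 kb, 37.7% at 5 kb and 17.4% at 10 kb. In all marked genes the share was highest, at 80.8%, 1.6 kb downstream and was still 54.4% at 5 kb. In 9 of 23 members under 5 kb the peak ran beyond the 3′ end of the gene, against 2 of 46 longer members. In those 46 the peak reached a median of 38.0% of the span. Peaks past the 3′ end were not counted for other genes, so these counts do not set the members apart.

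**Figure D3:**
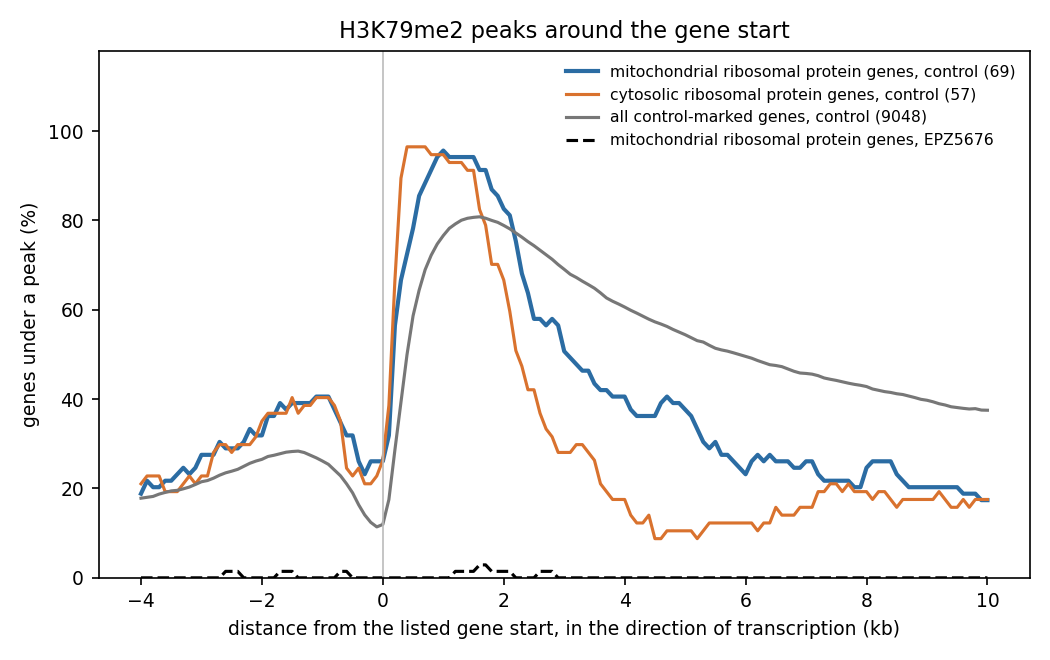
Percent of genes under a peak (vertical) by distance from the listed gene start in kb, in the direction of transcription (horizontal). Lines are control values of 69 mitochondrial ribosomal protein genes (blue), 57 cytosolic ribosomal protein genes (orange) and 9048 control-marked genes (grey), and EPZ5676 values of the 69 (dashed); the blue line reaches 95.7% at 1 kb and the dashed line never passes 2.90%.

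**Figure D4:**
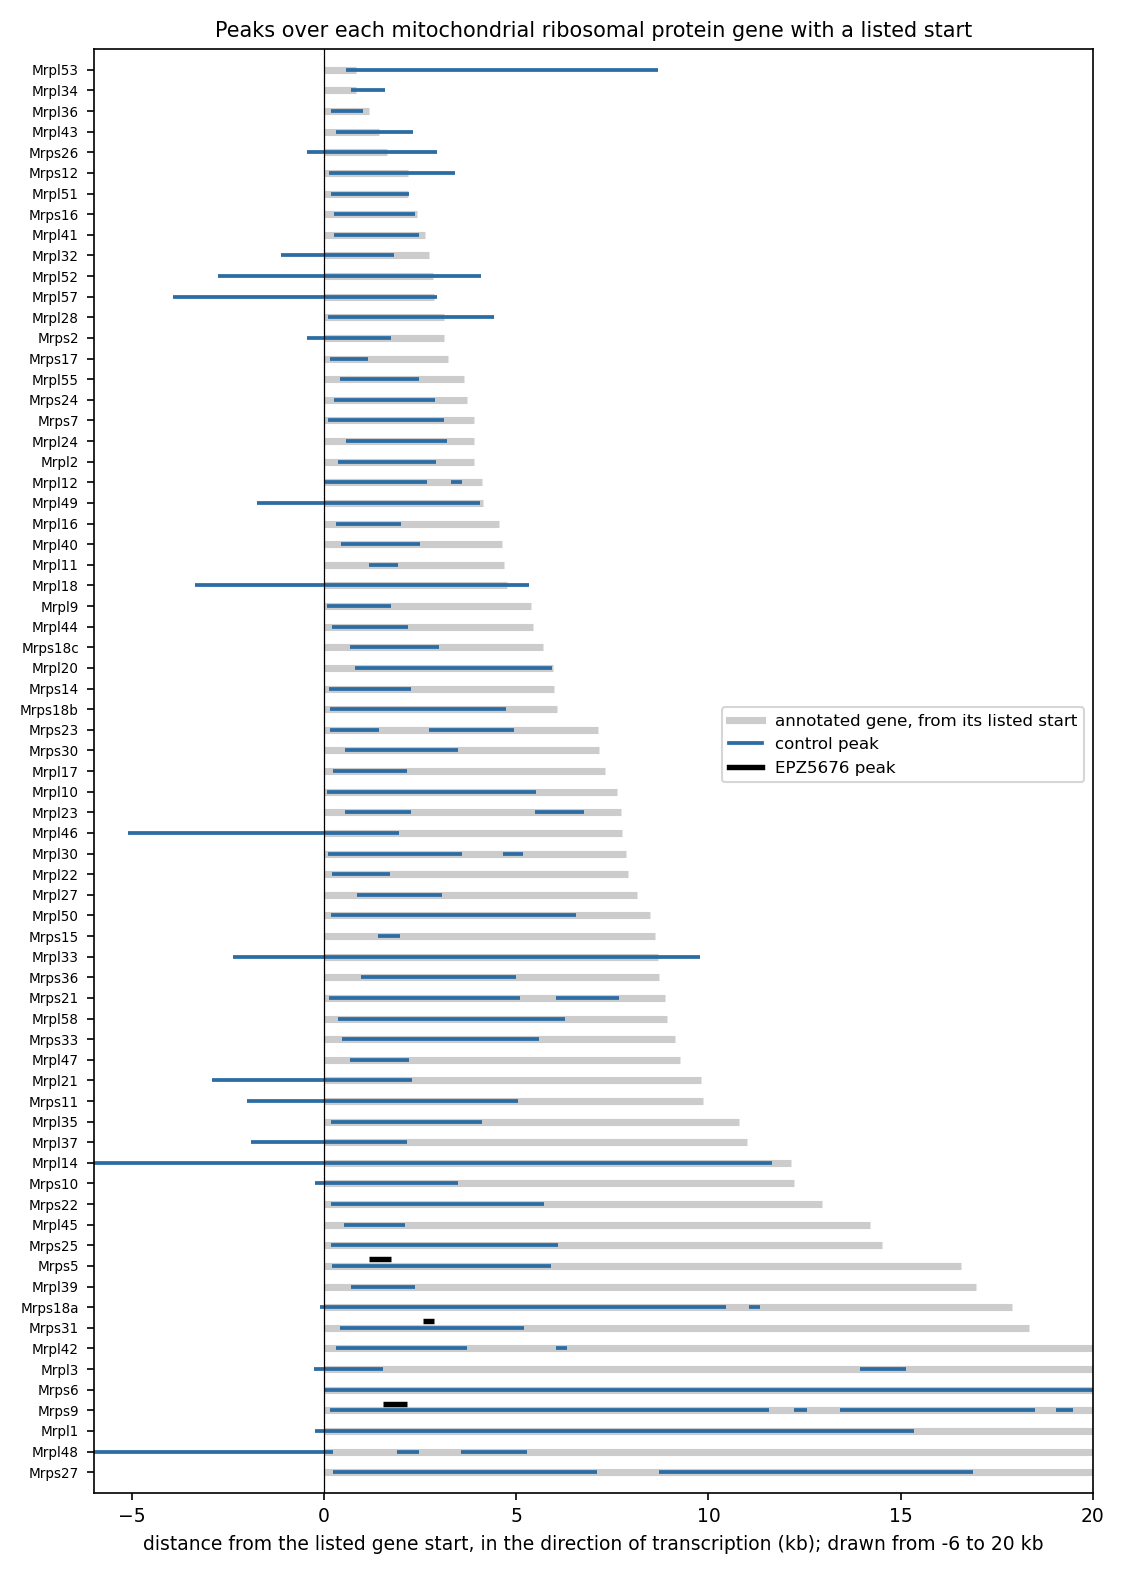
Control peaks (blue) and EPZ5676 peaks (black) over each of the 69 genes with a listed start, ordered by length, as distance from the start in kb (horizontal). Grey bars are the annotated genes, drawn to 20 kb; most blue bars begin within 1 kb after the start, 18 cover it, and the 3 black bars, on Mrps5, Mrps9 and Mrps31, lie within the first 3 kb.

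The 3 EPZ5676 peaks were short and lay inside control peaks. On Mrps5, which encodes the counterpart of bacterial S5, control peaks covered 5700 bp (34.4%) and the EPZ5676 peak 588 bp, at 1162 to 1749 bp from the start (chromosome 2, 127588588 to 127589175). On Mrps9 they covered 26475 and 636 bp, the latter at 1527 to 2162 bp (chromosome 1, 42852760 to 42853395). On Mrps31, a gene specific to mitochondria, they covered 4776 bp (24.8%) and 304 bp, the latter at 2561 to 2864 bp (chromosome 8, 22413901 to 22414204). The EPZ5676 bases were 10.3%, 2.40% and 6.37% of the control bases of these genes, in that order. Every base of all 3 peaks fell within a control peak.

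The deposited folds of these EPZ5676 peaks were 2.78, 2.73 and 2.66, and their −log10 q values 1.45, 1.38 and 1.21. Ranked within the EPZ5676 list, 41.1%, 57.2% and 81.1% of its peaks had a higher fold. The lowest deposited −log10 q in that list was 1.04. In the control list the same genes had folds of 4.37, 4.75 and 2.86. Folds from separately called lists are not on a shared scale, so no ratio is given. The 3 promoters printed above have no common motif letters: Mrps9 holds the NRF1 letters at base -4, Mrps31 the ETS letters at base -16, and Mrps5 none of the 3.

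For the other 75 genes the EPZ5676 list was empty over the span. The median distance from a member to the nearest EPZ5676 peak was 86119 bp. The same distance was not computed for other genes, so this value does not set the members apart. Off the span but within 2 kb there were EPZ5676 peaks beside Mrpl14 (850 bp away) and Mrpl48 (584 bp away), both long control domains shared with a neighbour.

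The lists differ in their floor, the lowest −log10 p being 2.36 for control peaks and 4.03 for EPZ5676 peaks. When control peaks were held to the EPZ5676 floor, 17910 remained, and 75 of the 78 members still had one, where 46.3% of all genes did. Mrpl11 and Mrps15 then joined Mrps34 without a peak.

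Many members have close neighbours, and some peaks cannot be assigned to 1 gene. Of the 78 genes, 20 overlap another protein-coding gene and 27 more lie within 1 kb of one. These counts were made for the members only, so they do not set the members apart from other genes. In 16 of 77 marked members (20.8%) a control peak also covered a further protein-coding gene, against 13.5% of all marked genes and 18.2% of the cytosolic ribosomal protein genes. Of the 69 members with a listed start, 23 (33.3%) have the start of another protein-coding gene within 1 kb upstream on the opposite strand, against 7.79% of all genes with a listed start and 14.0% of the cytosolic set. Partners include Tcp1 beside Mrpl18, Fau beside Mrpl49, Psma2 beside Mrpl32 and Sars2 beside Mrps12. Mrpl46 and Mrps11, with starts 42 bp apart, are both members, and 1 control peak of 7044 bp (fold 3.20) covered 1954 bp of Mrpl46 and 5049 bp of Mrps11. Among the 58 members that overlap no other gene, 57 had a control peak and 3 an EPZ5676 peak. Over all protein-coding genes, overlapping or not, the shares were 54.2% and 13.0%.

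The promoter windows of the members, from 250 bases before the start to 50 after, often held the motif letters. The ETS core CCGGAA occurred in 39 of 69 (56.5%), as against 19.5% of all 16456 windows and 30.2% of the 9048 from control-marked genes. GCGCANGCG occurred in 16 (23.2%, against 9.08% and 15.1%) and CCATNTT in 23 (33.3%, against 15.3% and 15.1%). The cytosolic ribosomal protein genes had 49.1%, 14.0% and 31.6%. At least 1 of the 3 was found in 56 windows (81.2%), and 13 windows held none. This share was 37.2% of all windows, 49.0% of those from control-marked genes and 77.2% of the cytosolic set. Most ETS letters lay close to the start: 37 windows (53.6%) had them from 100 bases before the start onward. The share was 14.2% of all windows, 22.6% of those from control-marked genes and 38.6% of the cytosolic set. Mrpl58 holds them at bases -17 and -2, and Mrpl50 at base -72.

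From the start base onward, the YY1 letters were found in 16 windows (23.2%, against 4.33% of all and 5.75% of those from control-marked genes). In the cytosolic set they were found in 6 of 57 windows. In each of the 16 windows of the members, a match lay on the reverse strand. These matches began 6 to 36 bases after the start, so that the gene strand reads AANATGG, which contains ATG. In Mrpl58 the match begins at base 20 and reads AACATGG. The strand of the letters was counted for the members only, so this strand count does not set them apart from other genes. The windows had a median GC content of 58.3% and 21 CpG dinucleotides, against 56.7% and 14 in all windows and 61.7% and 22 in those of control-marked genes. A match of letters is a description and not evidence of binding.

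Other nuclear genes of mitochondrial translation were also marked in most cases. The counts below stand beside control peaks on 54.2% and EPZ5676 peaks on 13.0% of all protein-coding genes, or on 67.4% and 25.1% of genes above 20 kb. For all genes under 5 kb these shares were 24.8% and 0.875%, and from 10 to 20 kb they were 59.3% and 5.23%. Median spans were 3201 bp for mitoribosomal proteins with other names and 11863 bp for assembly factors. Mitoribosomal proteins with other names had a control peak in 5 of 5 genes, from 1120 bp on Chchd1 to 13166 bp on Dap3, which encodes a GTP-binding protein of the small subunit, and none had an EPZ5676 peak. Assembly factors had control peaks in 23 of 23 genes, from 196 bp on Ybey, an endoribonuclease, to 13360 bp on Malsu1, which keeps the subunits apart during assembly, and again none had an EPZ5676 peak. Among translation factors, 13 of 14 were marked, Guf1 being the exception, and coverage was shortest on the release factor gene Mtrf1 (389 bp). Lrpprc, which binds and stabilises mitochondrial messenger RNA, had 19313 bp under control peaks and 921 bp under an EPZ5676 peak. Mrrf, the ribosome recycling factor, had 12655 and 274 bp. These 2 of 14 genes (14.3%) stand beside 13.0% of all genes, and both span more than 20 kb, where the share was 25.1%. Of the mitochondrial aminoacyl-tRNA synthetases, 16 of 17 were marked, Aars2 being the exception, and coverage was longest on Fars2 (100456 bp). Wars2, the tryptophan enzyme, had 20982 bp under control peaks and 363 bp under an EPZ5676 peak, the only 1 of the 17 (5.88%). The spans of Dap3, Malsu1, Mrrf and Ybey overlap other protein-coding genes (Ash1l, Igf2bp3, Rbm18 and Mcm3ap among them). Coverage of these spans may therefore not be theirs alone.

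Covered shares were lower than in the members in the 3 lists of longer genes. Medians over all genes of a list were 20.4% for assembly factors, 22.9% for translation factors and 20.6% for synthetases, beside 41.7% for the 78 members. Their median spans were 11863, 17508 and 32933 bp. The 5 mitoribosomal proteins with other names, with a median span of 3201 bp, had a higher median share, 71.9%.

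The ribosomal proteins of the cytosol served as the most similar set. All 77 of these genes had a control peak and none had an EPZ5676 peak, beside 54.2% and 13.0% of all protein-coding genes. Of the 77, 64 are under 5 kb, the class in which 24.8% of all genes had a control peak and 0.875% an EPZ5676 peak. The set holds 72 genes, all marked, when paralogs with a trailing l in the symbol are left out. Over all 77 genes the median span was 3183 bp, the median covered length 2022 bp and the median covered share 69.4%. The median top fold of the 77 was 3.52, against 3.27 for the members. In the class under 5 kb, the marked genes of the 2 sets had medians of 2044.5 bp and 74.3% in 24 mitochondrial genes and 1952.5 bp and 72.0% in 64 cytosolic genes. From 5 to 10 kb they had 2973 bp and 41.7% in 30 mitochondrial genes and 3694 bp and 64.9% in 12 cytosolic genes. With 1 list per condition these differences have no replicate check.

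The 132 distinct control peaks over the members had a median width of 2126.5 bp (189 to 34370 bp), against 1102 bp for all control peaks, and a median fold of 2.73 against 2.30. Of their 477120 bp, 66624 bp lay outside the members' spans. The comparison took in the whole control list, whether or not a peak lay over a gene. Peaks over other genes were not measured separately, so these widths and folds do not set the members apart from them. Markers of the cell types that the cultures could hold were read in the same way. The counts stand beside control peaks on 54.2% and EPZ5676 peaks on 13.0% of all protein-coding genes. For genes above 20 kb these shares were 67.4% and 25.1%. Median spans were 32433.5 bp for germ cell markers, 37047.5 bp for fibroblast markers and 6672.5 bp for testis somatic markers. Whether the marker lists differ from other genes of their size was not tested. All 10 germ cell markers had control peaks and none an EPZ5676 peak. Of 8 fibroblast markers, for the feeder cells, 5 had control peaks (1774 to 12557 bp, with Col1a2, Col3a1 and Vim at 0) and 3 had EPZ5676 peaks: Twist2 over 2907 bp, Prrx1 over 3583 bp and Sparc over 241 bp. Of 6 markers of testis somatic cells, Wt1 and Amh had control peaks and none had an EPZ5676 peak. The protocols name no step that removed feeder cells. Since mitochondrial ribosomes occur in both cell types, peaks from germ cells and from feeder cells cannot be told apart over the members.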

How the data were processed

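H3K79me2 chromatin immunoprecipitation with sequencing was deposited as 1 peak list per condition, each recorded under replicate 1 of its group. The submitters' processing notes name the tools Trimmomatic, deepTools and bcl2fastq (2.20.0.422) and the build mm10. Not given in the sources used here are the aligner, the peak caller, any pooling of replicates and the use of the inputs. Each list has 9 columns in broad-peak layout. The authors' score equals 10 times −log10 q, cut to a whole number, except on 4 control peaks. The deposited fold enrichment is a ratio of signal to background for each peak, and the −log10 columns of p-value and q-value were deposited with it; they served only to describe, rank or filter peaks.

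Spans came from RefSeq GRCm38.p6, which is the same assembly as mm10. Covered bases are the union of peaks within a span, and a gene with at least 1 bp covered counts as marked. Gene starts came from RefSeq promoter windows of 300 bases. The overlap code was tested on simulated data. Python 3.11.15, numpy 2.4.6 and pandas 2.3.3 were used.

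The members and the gene lists were chosen with earlier results of these data known. Genes were named by rule: members with no control peak or with an EPZ5676 peak, the 3 longest and 3 shortest control coverages of each subunit, the 3 highest folds, and 10 genes by role; other lists give their longest, shortest and EPZ5676-marked genes, of which 1 is not reported here. Mrps27, Mrps36, Mrpl14, Mrpl46, Mrps11, the fully covered genes, the unmarked genes of other lists and the neighbours named were added after their values were seen. Alternatives changed the least coverage, the q and p floors, the least peak width, the span and the start window.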

Additional observations from a re-analysis of the deposited data

How the results depend on the processing

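Of the 78 members, 75 to 78 were marked in the control list under the alternatives that kept all members: 75 with at least 500 bp covered, 76 with a −log10 q of at least 2, and 78 with the span extended by 2000 bp on each side. The EPZ5676 count of 3 changed by more than 1.5 times under 2 settings. With a −log10 q of at least 2, 0 members were marked in the EPZ5676 list and 0 in both lists. With extended spans, 5 were marked in the EPZ5676 list and 5 in both, as the peaks beside Mrpl14 and Mrpl48 were then counted. It changed less with at least 500 bp covered, where 2 were marked in the EPZ5676 list and 2 in both, since the peak on Mrps31 covers 304 bp. The median covered share over the 78 members (41.7%) ranged from 33.2% with extended spans to 41.7%, and the median covered length (2851 bp) from 2625.5 to 3873 bp. A window of 500 bp on either side of the start held a control peak in 57 of 69 members. Among these alternatives, the share over all genes is given for the p floor only (46.3%). Whether the contrast with all genes holds under the others was not examined. No paired analysis was possible because each condition has 1 list. Depth is unknown, so weak signal under the calling threshold cannot be told from none.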
